A study of Mus musculus with 18 samples.

Results

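Type I interferon-stimulated genes are the genes that cells switch on when interferon alpha or interferon beta binds to its receptor. The 35 genes described here were taken by symbol from a list of well-known members of this response. The list was chosen with earlier results of these data known. Of the 35, 34 had a row among the 19326 genes of the spleen expression table. *Mx1* is not analysed here. All 34 passed the filter on low values, which asked for a mean of at least 1 FPKM (fragment counts scaled by transcript length and library size) in at least 1 group and left 12969 genes for testing.

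The study sequenced RNA from the spleens of ICR mice, an outbred stock, at 10 weeks of age, with 3 libraries in each of 6 groups. The control group received no named treatment. The AOS group received AOS, read here as alginate oligosaccharide, at 10 mg/kg, and the HFD group a high fat diet. The HFD+AOS group received the diet together with AOS at 10 mg/kg. The HFD+AOS-FMT and HFD+control-FMT groups received the diet together with FMT, read here as transfer of faecal microbiota, from AOS-treated (10 mg/kg) and from control donors. No allele or transgene is named in any group. Whether libraries of the same group stem from different animals is not stated in the labels, so p-values measure the spread between these libraries, which may be technical. Whole spleen was used, and in such bulk RNA fewer cells of a type and less RNA per cell cannot be told apart.

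In this pathway, nucleic acid sensors in the cytosol and Toll-like receptors in endosomes lead to the production of interferon, which signals through the receptor chains IFNAR1 and IFNAR2 and the kinases JAK1 and TYK2. The kinases activate STAT2, which works with IRF9 in a complex that binds a short DNA element, the interferon-stimulated response element, upstream of its target genes. Several of the targets are themselves sensors or signalling proteins (*Ddx58*, *Ifih1*, *Irf7*, *Irf9*, *Stat2*), so the response feeds back on itself. In the spleen, which filters blood-borne material, plasmacytoid dendritic cells are known as strong producers of type I interferon, and most blood cells can respond to it.

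To show what the members share in sequence, their promoters were searched for the core of this element, GAAANNGAAA, on both strands (TTTCNNTTTC on the other), where matches may overlap. RefSeq promoter windows of GRCm38.p6, each 300 bases long with 250 before and 50 after a start site, were matched by symbol for 26 of the 35 listed genes. The core was present in 12 of these 26 (46.2%), against 3.99% of 27025 genes with a window. In 9 of the 12 a match lay before the start site, and in *Ifih1*, *Ddx58* and *Eif2ak2* it lay only after it. This split was not made for all genes. The stretches before the start site are printed for the 5 genes with more than 1 match there, and for *Rsad2* and *Isg20* because their levels are described apart from the others (below). Capitals mark each match to the core.
Isg15, chr4:156200819-156200988, minus strand: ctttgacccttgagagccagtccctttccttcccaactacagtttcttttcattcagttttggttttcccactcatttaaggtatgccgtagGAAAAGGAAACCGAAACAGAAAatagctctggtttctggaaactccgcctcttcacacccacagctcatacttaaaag
Ifit3, chr19:34583359-34583528, plus strand: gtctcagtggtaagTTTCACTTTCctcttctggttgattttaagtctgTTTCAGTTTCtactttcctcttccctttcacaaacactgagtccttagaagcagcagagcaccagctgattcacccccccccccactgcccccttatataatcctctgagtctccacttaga
Ifit1, chr19:34640719-34640864, plus strand: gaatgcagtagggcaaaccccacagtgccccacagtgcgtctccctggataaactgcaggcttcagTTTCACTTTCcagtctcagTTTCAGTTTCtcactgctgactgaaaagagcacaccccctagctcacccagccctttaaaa
Oas1a, chr5:120907526-120907695, minus strand: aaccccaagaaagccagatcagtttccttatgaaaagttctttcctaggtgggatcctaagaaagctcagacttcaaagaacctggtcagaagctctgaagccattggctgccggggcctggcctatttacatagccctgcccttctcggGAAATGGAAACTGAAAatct
Bst2, chr8:71537473-71537642, minus strand: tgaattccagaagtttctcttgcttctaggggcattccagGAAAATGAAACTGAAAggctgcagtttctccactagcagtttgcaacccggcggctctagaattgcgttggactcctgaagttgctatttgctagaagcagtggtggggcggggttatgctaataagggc
Rsad2, chr12:26456453-26456622, minus strand: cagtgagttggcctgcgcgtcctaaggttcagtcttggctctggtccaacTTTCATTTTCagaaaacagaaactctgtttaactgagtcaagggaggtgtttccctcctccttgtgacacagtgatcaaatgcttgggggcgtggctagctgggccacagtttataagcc
Isg20, chr7:78913254-78913423, plus strand: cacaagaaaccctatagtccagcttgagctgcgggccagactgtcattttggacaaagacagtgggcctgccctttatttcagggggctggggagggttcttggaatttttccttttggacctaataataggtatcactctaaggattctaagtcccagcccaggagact
The *Isg15* promoter held 3 overlapping matches that began 78, 72 and 66 bases before the start site. *Ifit3* and *Ifit1* each held the pair TTTCACTTTC and TTTCAGTTTC, which began 156 and 122 bases before the start of *Ifit3* and 104 and 85 bases before that of *Ifit1*. In *Oas1a* the matches lay next to the start site, 20 and 14 bases before it, and in *Bst2* they began 130 and 124 bases before it. *Rsad2* held 1 match, 120 bases before its start, and the *Isg20* stretch held none. Neither did the windows of *Irf7*, *Oasl2*, *Herc6*, *Ifi44* and *Ifi35*, whose levels ran close to the mean of the other members. A match describes the sequence and does not show that a factor binds there.

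Most members were lowest in HFD+AOS-FMT or control and highest in AOS or HFD+AOS, but the full order of the 6 groups varied, the commonest order being shared by 11 of the 34. The mean of the 34 members' log2(FPKM + 1) was 4.33 ± 0.11 (SD, n = 3) in HFD+AOS-FMT, 4.54 ± 0.13 in control, 4.59 ± 0.13 in HFD+control-FMT, 4.88 ± 0.09 in HFD, 5.19 ± 0.77 in AOS and 5.29 ± 0.31 in HFD+AOS. The groups differed in spread as well as in level: the AOS libraries ran from 4.49 to 6.0 and the HFD libraries from 4.82 to 4.99. The lowest group mean was that of HFD+AOS-FMT for 20 members and that of control for 10. The highest was that of AOS or HFD+AOS for 30 members. An F test over the 6 groups (limma, adjusted over all genes) called none of the members, against 0.116% of all genes tested, with the smallest unadjusted p for *Zbp1* (0.0011) and *Ifit3* (0.0013). Leaving out AOS library 2 gave 8 members called, where 130 of the 12969 genes were called. AOS library 3 gave 2 members and 28 genes, and control library 3 gave 1 member and 1022 genes.

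A pair of libraries stood apart within their groups. AOS library 3 was the highest of all 18 libraries for 28 of the 34 members, and it exceeded both other AOS libraries for 33, *Isg20* being the exception. Its ratio to the mean of the other 2 AOS libraries had a median of 2.21 over members (0.928 to 5.80), beside a median of 1.01 over all genes, of which 38.8% were above both. HFD+AOS library 1 exceeded both others of its group for 29 members, with a median ratio of 1.54 (0.885 to 2.66), beside 0.931 and 25.8% over all genes. The members' medians and counts in the comparisons that hold these libraries, the differences of the genes described in full for HFD+AOS, and the correlations are therefore also given without both, an alternative chosen after the values were seen.

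**Figure D1:**
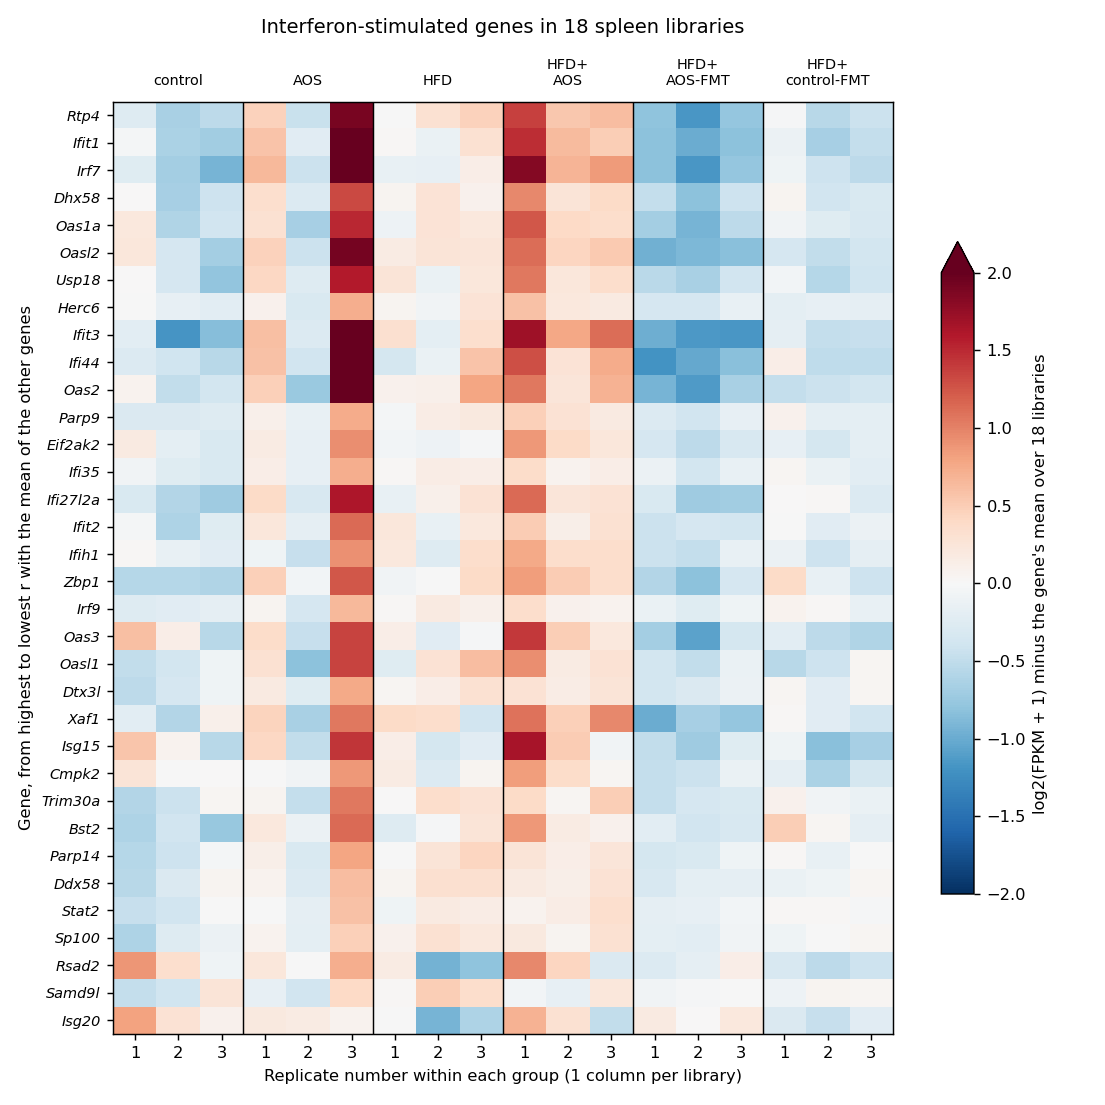
Deviation of each member's log2(FPKM + 1) from its mean over 18 libraries (colour, limited at 2, with 5 values past the limit), with members in rows, from the highest to the lowest r with the mean of the others, and libraries in columns by group. AOS library 3 and HFD+AOS library 1 hold the highest values, and the HFD+AOS-FMT libraries are mostly below the mean.

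The sensors recognise foreign nucleic acid. *Zbp1* (chr2:173206612-173218923 on GRCm38) encodes a sensor of Z-form nucleic acids. Its level was 24.5, 24.3 and 23.9 FPKM in control, 51.7, 35.3 and 88.4 in AOS, 34.8, 36.7 and 48.0 in HFD, 66.3, 52.4 and 46.9 in HFD+AOS, 24.1, 20.4 and 28.9 in HFD+AOS-FMT, and 48.3, 33.0 and 27.4 in HFD+control-FMT. The control libraries were nearly equal, and all libraries of the AOS, HFD, HFD+AOS and HFD+control-FMT groups were above them, while HFD+AOS-FMT overlapped control. *Zbp1* rose in HFD+AOS against control by a log2 difference of 1.14 ± 0.27 (SE; limma adjusted p = 0.0398). The log2 difference in AOS against control was 1.14 too, but with an adjusted p of 0.102. The RNA helicases *Ddx58* (RIG-I), *Ifih1* (MDA5) and *Dhx58* (LGP2) and the kinase *Eif2ak2* (PKR), which stops translation on binding double-stranded RNA, were lower in abundance. Their group means ran from 19.6 to 27.7 FPKM for *Ddx58*, from 6.35 to 12.2 for *Ifih1*, from 6.95 to 16.9 for *Dhx58* and from 6.81 to 13.6 for *Eif2ak2*. All 5 sensors had higher libraries in HFD+AOS than in control without overlap, as did 12.4% of all genes.

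The 2'-5' oligoadenylate synthetases make the second messenger that activates RNase L, which degrades RNA. *Oas1a* (chr5:120896256-120907521) measured 23.8, 13.1 and 15.4 FPKM in control, 25.6, 12.5 and 60.1 in AOS, 19.1, 24.9 and 23.8 in HFD, 49.5, 27.2 and 26.3 in HFD+AOS, 12.4, 10.3 and 14.0 in HFD+AOS-FMT, and 19.5, 17.2 and 16.2 in HFD+control-FMT. *Oasl2* (chr5:114896936-114912234), a family member of the OAS-like type, measured 21.3, 14.1 and 10.9 FPKM in control, 25.4, 13.1 and 71.1 in AOS, 20.4, 21.8 and 21.5 in HFD, 40.5, 24.6 and 26.4 in HFD+AOS, 8.78, 9.22 and 9.69 in HFD+AOS-FMT, and 14.1, 12.6 and 13.8 in HFD+control-FMT. In both genes the HFD+AOS libraries lay above all HFD and control libraries, AOS ran from the level of control to the highest value, and the HFD+AOS-FMT libraries lay below those of HFD and HFD+control-FMT. The log2 difference in HFD+AOS against control was 0.92 ± 0.40 (SE) for *Oas1a* and 0.95 ± 0.41 for *Oasl2*, with limma adjusted p of 0.234 and 0.224. *Oas2*, *Oas3* and *Oasl1* had group means of 6.88 to 29.4, 5.81 to 17.8 and 10.0 to 19.0 FPKM. *Oas1a* is nearly identical to *Oas1g*, which lies beside it, and the counting program is not given in the sources used here, so reads could have been split between them.

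Of the signalling members, *Irf7* (chr7:141262706-141266481), the transcription factor that amplifies interferon alpha production, had the highest mean over the 18 libraries. Its values were 49.97, 36.7 and 30.7 FPKM in control, 93.0, 43.6 and 276 in AOS, 53.5, 52.9 and 64.8 in HFD, 215, 95.7 and 108 in HFD+AOS, 33.1, 25.9 and 34.1 in HFD+AOS-FMT, and 55.5, 44.4 and 41.1 in HFD+control-FMT. HFD+AOS was above control, HFD and both FMT groups in every library, and only the AOS group overlapped it. The log2 difference in HFD+AOS against control was 1.74 ± 0.48 (SE; limma adjusted p = 0.0752). The remaining members of this role spanned less. From lowest to highest library, *Irf9* and *Stat2*, the partners in the DNA-binding complex, spanned 2.00 and 2.11 times, *Ifi35* 2.17 times, and *Parp9*, *Parp14* and *Dtx3l*, which act on ADP-ribosylation and ubiquitin, 2.23, 2.66 and 2.55 times, against 10.6 times for *Irf7*. *Parp9* and *Dtx3l* overlap on opposite strands, as do *Irf7* and *Phrf1*, while *Irf9* and *Rnf31* overlap on the same strand. Strandedness is not given in the sources used here, so reads shared by the opposite-strand pairs cannot be assigned. For *Irf9* and *Rnf31*, strandedness would not tell shared reads apart. Over the 18 libraries r was 0.09 for *Irf7* and *Phrf1* (0.06 without AOS library 3 and HFD+AOS library 1), 0.75 for *Irf9* and *Rnf31* (0.82) and 0.92 for *Parp9* and *Dtx3l* (0.87), given as descriptions.

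ISG15 is a ubiquitin-like protein that is attached to other proteins, and USP18 removes it and dampens receptor signalling. *Isg15* (chr4:156199424-156200818) measured 129, 91.9 and 59.2 FPKM in control, 117, 61.9 and 237 in AOS, 96.5, 68.5 and 75.2 in HFD, 277, 125 and 83.3 in HFD+AOS, 62.3, 53.3 and 74.4 in HFD+AOS-FMT, and 82.8, 48.6 and 55.1 in HFD+control-FMT. *Usp18* (chr6:121245906-121270917) measured 16.8, 13.1 and 9.27 FPKM in control, 22.7, 13.9 and 52.0 in AOS, 20.2, 15.2 and 19.7 in HFD, 35.9, 19.8 and 21.6 in HFD+AOS, 11.2, 10.4 and 12.6 in HFD+AOS-FMT, and 16.1, 10.9 and 12.5 in HFD+control-FMT. *Isg15* in HFD+AOS overlapped control, since control library 1 was high and HFD+AOS library 3 low, while *Usp18* in HFD+AOS was above control in every library. The log2 difference in HFD+AOS against control was 0.67 ± 0.47 (SE) for *Isg15* and 0.92 ± 0.35 for *Usp18* (limma adjusted p of 0.463 and 0.175). *Herc6*, the ligase that attaches ISG15 in mice, had group means of 8.43 to 13.4 FPKM.

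The IFIT proteins bind foreign RNA and block its translation. *Ifit3* (chr19:34583531-34588731) measured 15.0, 7.17 and 9.29 FPKM in control, 27.3, 14.4 and 88.8 in AOS, 22.2, 15.2 and 22.3 in HFD, 58.9, 30.7 and 39.2 in HFD+AOS, 8.46, 7.36 and 7.30 in HFD+AOS-FMT, and 15.3, 12.4 and 12.5 in HFD+control-FMT. The HFD+AOS libraries lay above every library of control, HFD and the FMT groups, and the HFD+AOS-FMT libraries below every HFD and HFD+control-FMT library. *Ifit3* rose in HFD+AOS against control by a log2 difference of 1.94 ± 0.47 (SE; limma adjusted p = 0.0482). *Ifit1* had group means of 2.73 (HFD+AOS-FMT) to 14.3 FPKM (AOS), and *Ifit2* of 6.19 to 12.2 FPKM in the same groups. *Ifit3* is nearly identical to its neighbour *Ifit3b*, and *Ifit1* has close copies, so these levels are uncertain to the extent that reads were shared.

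The effectors act on viruses in different ways. *Ifi27l2a* (chr12:103442167-103443680), a small hydrophobic protein, was the most abundant member, with 292, 239 and 219 FPKM in control, 471, 289 and 1108 in AOS, 324, 388 and 439 in HFD, 795, 425 and 439 in HFD+AOS, 290.0, 219 and 222 in HFD+AOS-FMT, and 361, 366 and 296 in HFD+control-FMT. *Xaf1* (chr11:72301629-72313733), a promoter of cell death, measured 23.2, 17.8 and 29.1 FPKM in control, 37.1, 16.9 and 57.5 in AOS, 35.7, 34.8 and 20.6 in HFD, 58.4, 38.2 and 53.6 in HFD+AOS, 13.1, 16.8 and 15.5 in HFD+AOS-FMT, and 27.5, 23.1 and 20.6 in HFD+control-FMT. HFD+AOS was above control in every library for both genes, and for *Xaf1* the HFD+AOS-FMT libraries were below every library of the other groups, if only just below AOS library 2. The log2 difference in HFD+AOS against control was 1.09 ± 0.36 (SE) for *Ifi27l2a* and 1.07 ± 0.34 for *Xaf1* (limma adjusted p of 0.117 and 0.104). *Rtp4* ranged from 9.88 to 89.6 FPKM over the libraries, *Ifi44* from 2.26 to 43.4, *Bst2* (tetherin, which holds budding virus at the membrane) from 64.8 to 241, and *Trim30a* from 27.0 to 86.3. *Ifi44* had the widest span of all members, at 19.2 times from lowest to highest library. *Sp100*, a nuclear body protein, ranged from 114 to 247 FPKM and *Samd9l*, a translation inhibitor, from 63.5 to 125.9.

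**Figure D2:**
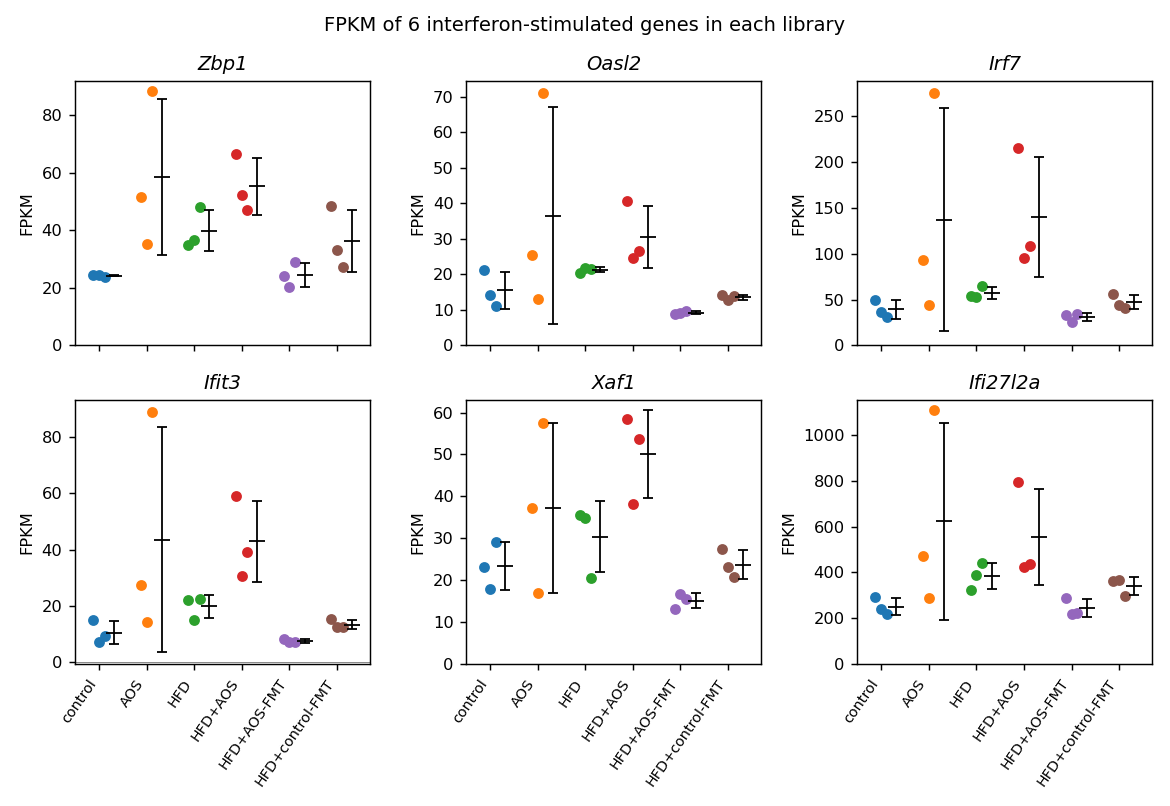
FPKM (linear axis) of *Zbp1*, *Oasl2*, *Irf7*, *Ifit3*, *Xaf1* and *Ifi27l2a* by group, with 1 point per library and the group mean and SD (n = 3) beside the points. The HFD+AOS points lie above the control points for all 6 genes, and AOS library 3 is the highest AOS point in each.

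The combination of diet and AOS was compared with control. Of the 34 members, 32 had a higher mean in HFD+AOS, against 60.2% of all genes, with a median log2 difference of 0.64 beside 0.04 over all genes. *Ifit3* and *Zbp1* rose and no member fell (limma, adjusted p under 0.05 over all genes), against 1.8% of all genes called higher and 0.285% called lower. At an unadjusted p under 0.05 there were 26 members, against 18.9% of all genes. For 28 members every HFD+AOS library exceeded every control library, against 12.4% of all genes, and for none did every library lie below, against 4.78%. The 6 members that overlapped were *Isg15*, *Isg20*, *Oas3*, *Rsad2*, *Cmpk2* and *Samd9l*. With AOS library 3 and HFD+AOS library 1 both left out, the median was 0.52, the same number of members was higher, and 28 members did not overlap, against 20.5% of all genes. *Ifit3* and *Irf7* were then the members called, with log2 differences of 1.69 and 1.38 (limma adjusted p of 0.0383 and 0.0432), while *Zbp1* had a difference of 1.0 (limma adjusted p = 0.0567). The differences without both libraries were 0.63 for *Oas1a*, 0.74 for *Oasl2*, 0.66 for *Usp18*, 0.80 for *Ifi27l2a*, 0.95 for *Xaf1* and 0.20 for *Isg15*, which had the largest change among these. The calls were close to the threshold: the adjusted p of *Ifit3* and *Zbp1* ranged up to 0.148 over the alternative settings. No member was called without any 1 of the HFD+AOS libraries, control library 1 or 2, AOS library 1, HFD library 2, HFD+AOS-FMT library 1 or 3 or HFD+control-FMT library 2. There was 1 call without HFD library 1 or 3, HFD+AOS-FMT library 2 or HFD+control-FMT library 1 or 3, and there were 5 without control library 3, 7 without AOS library 2 and 13 without AOS library 3, where 1287, 282 and 290.0 of the 12969 genes were called. With the compared groups only, limma called no member and 1 gene of 12765.

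The high fat diet alone was compared with control. In HFD, 29 of the 34 members had a higher mean, against 68.5% of all genes, with a median log2 difference of 0.48 beside 0.10 over all genes. None passed the test (limma; the lowest adjusted p was 0.0539), against 2.75% of all genes, and 10 had an unadjusted p under 0.05, against 28.6%. The HFD libraries lay above all control libraries for 14 members, against 14% of all genes, 6 of them among the 7 signalling members. *Isg20* was the member for which they lay below, against 5.44%. Leaving out control library 3 gave 8 members called and 3758 of the 12969 genes. Leaving out HFD library 1 gave 3 members and 1206 genes, and leaving out HFD+AOS library 1 or 3 gave 1 member, with 387 and 580.0 genes.

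AOS alone was compared with control. In AOS, 32 members had a higher mean, against 62.4% of all genes, with a median log2 difference of 0.54 beside 0.05 over all genes. No member was called (limma), nor was any gene (0%), and 19 members had an unadjusted p under 0.05, against 15.4% of all genes. The groups did not overlap for 3 members, *Zbp1*, *Bst2* and *Parp9*, all higher in AOS, against 11.7% of all genes, and no member lay below, against 5.1%. Without AOS library 3 the median was 0.19, with 27 members higher, and without AOS library 2 it was 0.89, with 6 members and 69 of the 12969 genes called. The size of this difference therefore rested on which AOS libraries were included.

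Adding AOS to the diet was asked by comparing HFD+AOS with HFD. Of the 34 members, 30 had a higher mean in HFD+AOS, against 41.9% of all genes, with a median log2 difference of 0.42 beside -0.03 over all genes. No member and no gene (0%) was called by limma, and 6 members had an unadjusted p under 0.05, against 15% of all genes. For 10 members all HFD+AOS libraries exceeded all HFD libraries, against 6.42% of all genes, and for none did they lie below, against 9.57%. The 10 were *Ifit1*, *Ifit3*, *Oas1a*, *Oas3*, *Oasl2*, *Irf7*, *Rtp4*, *Ifih1*, *Xaf1* and *Eif2ak2*. Without AOS library 3 and HFD+AOS library 1 the median was 0.18, with 29 members higher and 10 not overlapping, against 11% of all genes.

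Whether AOS acted differently on the 2 diets was asked with an interaction term. No member and no gene (0%) passed the test (limma; the lowest adjusted p of a member was 0.259), and 2 members, *Isg20* and *Sp100*, had an unadjusted p under 0.05, against 15.9% of all genes. The term was above 0 for 8 members, against 34.8% of all genes, and its median was -0.43 on the log2 scale, beside -0.09 over all genes. Without AOS library 3 it was 0.11, so its sign followed this library.

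**Figure D3:**
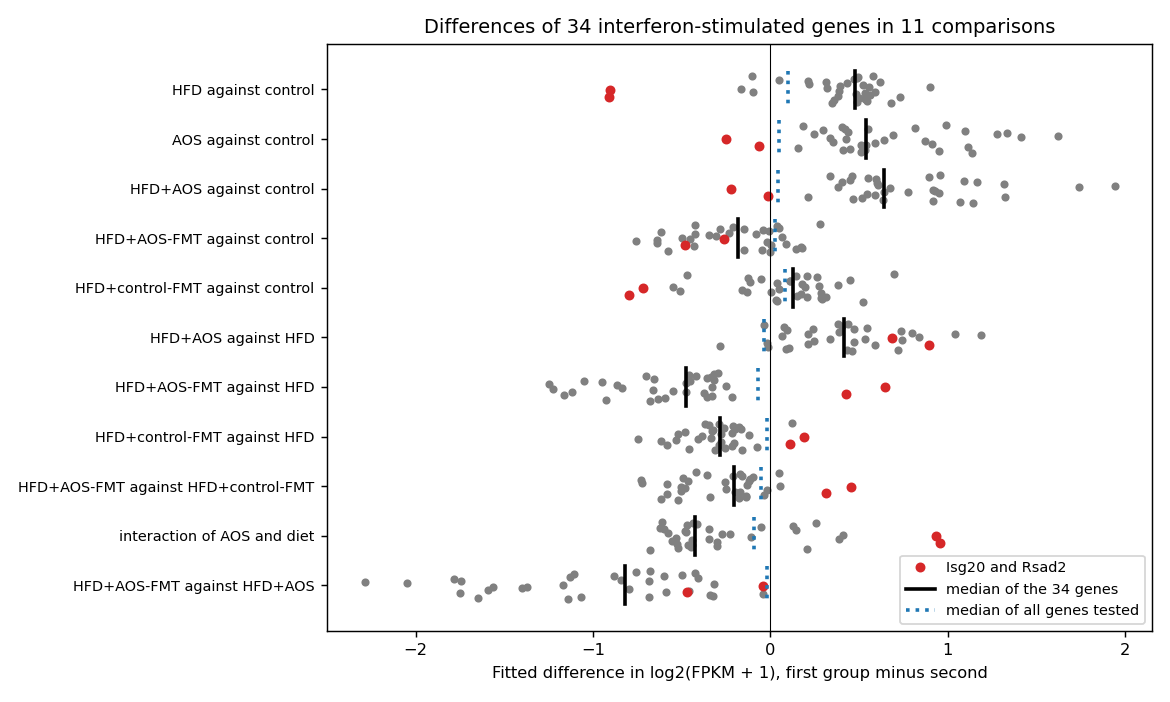
Fitted difference in log2(FPKM + 1) of each of the 34 members (grey points; red for *Isg20* and *Rsad2*) in 11 comparisons, with the median of the members (black) and of all genes tested (dotted). Values are mostly above 0 for AOS, HFD and HFD+AOS against control and for HFD+AOS against HFD, and mostly below 0 for HFD+AOS-FMT against HFD, HFD+control-FMT and HFD+AOS.

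The FMT groups were compared with HFD, with which they share the diet. In HFD+AOS-FMT, 32 of the 34 members had a lower mean than in HFD. The other 2, *Isg20* and *Rsad2*, were higher, as were 32.5% of all genes. Over members the comparison gave a median log2 difference of -0.48 beside -0.07 over all genes. No member and no gene (0%) was called by limma, the lowest adjusted p of a member being 0.278, and 15 members had an unadjusted p under 0.05, against 13.6% of all genes. All HFD+AOS-FMT libraries were below all HFD libraries for 26 members, against 16.7% of all genes, and above them for *Isg20*, against 6.25%. In HFD+control-FMT, 31 members had a lower mean than in HFD and 3 a higher one, as did 44.4% of all genes, with a median of -0.28 beside -0.02. None was called by limma, against 0.0154% of all genes, and none had an unadjusted p under 0.05, against 4.63%. The libraries lay below those of HFD for 7 members (*Oas2*, *Oasl2*, *Rtp4*, *Ddx58*, *Herc6*, *Sp100* and *Eif2ak2*), against 5.59% of all genes, and above them for none, against 4.57%. These comparisons share the HFD libraries.

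The donor of the microbiota was compared directly. HFD+AOS-FMT had a lower mean than HFD+control-FMT for 30 members and a higher one for 4, as for 34.7% of all genes, with a median log2 difference of -0.21 beside -0.05 over all genes. No member was called by limma, against 0.00771% of all genes, and no member had an unadjusted p under 0.05, against 10.5%. The HFD+AOS-FMT libraries were lower without overlap for 16 members, against 15.6% of all genes, and higher for *Isg20* and *Rsad2*, against 7.8%.

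Against control, neither FMT group had a called member. In HFD+AOS-FMT 9 members had a higher mean, against 56.4% of all genes, with a median log2 difference of -0.18 beside 0.02 over all genes, and limma called no member and no gene (0%), with no member at an unadjusted p under 0.05 against 11.6% of all genes. Its libraries were below all controls for 8 members (*Ifit1*, *Oas2*, *Oasl2*, *Cmpk2*, *Rtp4*, *Ifi44*, *Xaf1* and *Eif2ak2*), against 5.79% of all genes, and above them for *Bst2*, against 7.11%. In HFD+control-FMT 24 members had a higher mean (19 with median-ratio scaling, 20 with quantile normalization), against 65.8% of all genes, with a median of 0.13 beside 0.08. Limma called none of them, against 5.13% of all genes, and 4 had an unadjusted p under 0.05, against 26.9%. The groups did not overlap for 6 higher members (*Irf9*, *Zbp1*, *Ifi27l2a*, *Bst2*, *Parp9* and *Sp100*), against 15.5% of all genes, and for 3 lower ones (*Isg20*, *Rsad2* and *Cmpk2*), against 8.29%. Without control library 3, 1 member was called, and 3045 of the 12969 genes. The control libraries are shared by these comparisons and by those of HFD, AOS and HFD+AOS above.

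The HFD+AOS and HFD+AOS-FMT groups were the highest and lowest by the members' mean. They were compared after the values had been seen, so the choice of pair is part of the result. All 34 members had a lower mean in HFD+AOS-FMT, where 44.5% of all genes were higher, with a median log2 difference of -0.82 beside -0.02 over all genes. *Ifit3* fell by 2.29 on the log2 scale (SE 0.47; limma adjusted p = 0.0442) and *Xaf1* by 1.65 (SE 0.34; limma adjusted p = 0.0441), against 0.717% of all genes called lower and 0.2% called higher. The unadjusted p was under 0.05 for 28 members, against 15.3% of all genes. The groups did not overlap for 31 members, all lower, against 14.3% of all genes lower and 8.21% higher, and overlapped for *Isg20*, *Rsad2* and *Samd9l*. With HFD+AOS library 1 and AOS library 3 left out, the median was -0.67, 31 members again did not overlap, against 26.2% of all genes, and 5 members and 25 of the 12969 genes were called. The log2 difference was then -2.04 for *Ifit3* (limma adjusted p = 0.0218) and -1.53 for *Xaf1* (limma adjusted p = 0.0534). No member was called without any 1 of the HFD+AOS or HFD+AOS-FMT libraries, control library 2, AOS library 1, HFD library 2 or HFD+control-FMT library 2 or 3, and there were 12 calls without AOS library 2 and 18 without AOS library 3, where 157 and 163 genes were called.

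*Isg20*, an exonuclease of single-stranded RNA, and *Rsad2* (viperin), which makes a nucleotide that ends viral RNA chains, differed from most other members in the order of the groups. They and *Samd9l* are singled out after their values were seen. *Isg20* (chr7:78913424-78920396) measured 231, 163 and 141 FPKM in control, 152, 148 and 139 in AOS, 132, 69.2 and 86.5 in HFD, 216, 164 and 94.2 in HFD+AOS, 149.8, 134 and 153 in HFD+AOS-FMT, and 108, 95.8 and 114 in HFD+control-FMT. *Rsad2* (chr12:26442746-26456452) measured 87.9, 60.4 and 44.6 FPKM in control, 55.6, 47.3 and 78.8 in AOS, 53.1, 24.0 and 26.8 in HFD, 93.1, 64.3 and 38.5 in HFD+AOS, 39.2, 41.9 and 51.9 in HFD+AOS-FMT, and 37.9, 32.7 and 35.3 in HFD+control-FMT. Both were highest on average in control or HFD+AOS and lowest in HFD, and every HFD library of *Isg20* was below every control library. The log2 difference in HFD against control was -0.91 ± 0.26 (SE) for *Isg20* and -0.91 ± 0.33 for *Rsad2* (limma adjusted p of 0.061 and 0.103).

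The likeness of members was described by Pearson correlation of log2(FPKM + 1) over the 18 libraries, which share groups and the scaling within each library. Of the 34 members, 28 had r above 0.8 with the mean of the other 33, led by *Rtp4* (0.988), *Ifit1* (0.987) and *Irf7* (0.983). Without AOS library 3 and HFD+AOS library 1, 19 had r above 0.8, with *Rtp4* at 0.981. The lowest were *Isg20* at 0.07 (-0.29 without these libraries), *Samd9l* at 0.33 (0.22) and *Rsad2* at 0.42 (-0.04). *Isg20* and *Rsad2* instead had r = 0.90 with each other (0.94). *Rsad2* and *Cmpk2*, a nucleotide kinase that lies beside it on chromosome 12, had r = 0.75 (0.60).

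**Figure D4:**
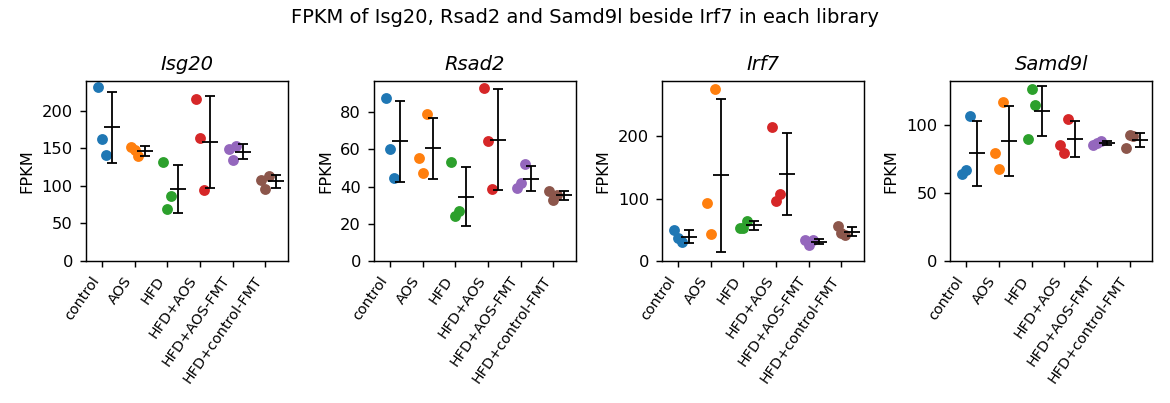
FPKM of *Isg20*, *Rsad2* and *Samd9l* beside *Irf7* by group, with 1 point per library and the group mean and SD (n = 3) beside the points. *Isg20* and *Rsad2* have their lowest points in HFD and high points in control library 1 and HFD+AOS library 1.

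*Isg20* and *Rsad2* moved against the B cell markers, though not against these alone. Over the 18 libraries, the mean log2 level of 8 B cell genes had r = -0.88 with *Isg20* and -0.78 with *Rsad2*, and that of 12 erythroid genes r = 0.63 and 0.53. Without AOS library 3 and HFD+AOS library 1 these were -0.88, -0.85, 0.64 and 0.61. With *Isg20*, r was also -0.74 for 17 genes that act upstream of interferon and for 5 receptor and kinase genes. It was -0.61 for 8 T cell genes and -0.58 for 10 plasmacytoid dendritic cell genes, but 0.50 for 10 neutrophil genes. In the same order, r with *Rsad2* was -0.51, -0.51, -0.57, -0.45 and 0.43. The summed FPKM of the B cell genes ranged from 1522 to 2613 in control and from 2488 to 3046 in HFD, and that of the erythroid genes from 117881 to 177724 and from 41785 to 164593. The part of these cells in the values of *Isg20* and *Rsad2* was not tested.

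The mean of all 34 members, *Isg20* and *Rsad2* included, was set beside the same marker lists. All 10 plasmacytoid dendritic cell genes, 8 monocyte genes and 9 of 10 listed plasma cell genes had a row and were tested. With the mean of the members, r was 0.66 for plasma cell genes, 0.63 for 8 natural killer cell genes, 0.59 for monocyte genes, 0.17 for plasmacytoid dendritic cell genes and -0.03 for B cell genes. In the same order, r without AOS library 3 and HFD+AOS library 1 was 0.60, 0.70, 0.72, 0.25 and 0.12. All 10 plasmacytoid dendritic cell genes had a higher mean in HFD+AOS than in control, against 60.2% of all genes, with a median log2 difference of 0.53. *Siglech*, *Cox6a2* and *Pltp* were called higher there (limma), against 1.8% of all genes. In HFD+control-FMT against control all 10 were higher, with a median of 0.78, and 6 were called (limma), against 5.13% of all genes. Alternative settings for the calls of these dendritic cell genes are not given here. All 10 were also higher in HFD and in HFD+AOS-FMT against control, with medians of 0.53 and 0.36, against 68.5% and 56.4% of all genes. In AOS against control 9 were higher, with a median of 0.22, against 62.4% of all genes. In HFD+AOS-FMT against HFD+AOS 9 were lower and none was called. The summed FPKM of plasma cell genes was 677 to 1240 in control, 1418 to 1782 in AOS, 846 to 1329 in HFD, 1676 to 2813 in HFD+AOS, 907 to 1054 in HFD+AOS-FMT and 946 to 2173 in HFD+control-FMT. All 9 rose in HFD+AOS against control (limma), and *Xbp1*, *Sdc1*, *Prdm1* and *Txndc5* fell in HFD+AOS-FMT against HFD+AOS. Of the 9 rises, 6 passed the test with median-ratio scaling, 3 without AOS library 3 and HFD+AOS library 1 and 0 with the compared groups only (lowest limma adjusted p = 0.148). The 4 falls passed with median-ratio scaling and with the compared groups only, where 6 of the 9 genes fell. Without both libraries none of the 4 falls passed. All 8 natural killer cell genes had a higher mean in HFD+AOS than in control, against 60.2% of all genes. All 8 had a lower mean in HFD+AOS-FMT than in HFD+AOS, where 44.5% of all genes were higher. The median log2 differences were 0.40 and -0.61. *Klrd1* rose in the first comparison and fell in the second (limma), but neither call was made with the compared groups only (limma adjusted p of 0.150 and 0.119). Their summed FPKM was 115 to 136 in control, 113 to 158 in AOS, 125 to 179 in HFD, 138 to 193 in HFD+AOS, 98.0 to 114 in HFD+AOS-FMT and 103 to 110.0 in HFD+control-FMT, with 158 in AOS library 3 and 138 in HFD+AOS library 1. The summed monocyte genes were 196 to 282 in control and 304 to 526 in HFD+AOS, with 526 in HFD+AOS library 1, and 204 to 246 in AOS, with 246 in AOS library 3. In the same 2 comparisons, 7 of the 8 monocyte genes were higher and then all 8 lower. All 10 red pulp macrophage genes were higher and then lower, with medians of 0.39 and -0.35, and *Spic* was called in both (limma, main settings). All 12 erythroid genes were lower and then higher, with medians of -0.62 and 0.37 and none called. With the mean of the members, r was 0.36 for red pulp macrophage genes and -0.26 for erythroid genes (0.48 and -0.49 without both libraries). No marker of these lists was at 0 in all libraries, and B and T cell, erythroid and red pulp macrophage genes were present in every group, as in spleen. Neutrophil genes summed to 829 to 15479.6 FPKM in control and to 388 to 1465 elsewhere, and a list of genes of other organs (testis, pancreas, fat) to 75.4 to 2120.3 in HFD+AOS, where library 1 was the lowest. The part of these cell types in the members' differences was not tested.

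Few of the interferon genes themselves were measured. Of 21 listed, 7 had a row and the others are not analysed here. *Ifna4* and *Ifna11* were listed at 0 in all libraries, and *Ifng*, the type II interferon, was the only one past the filter, at 0.68 to 2.26 FPKM, with no call in any comparison (limma). Of the receptor and kinase genes, *Ifnar1*, *Ifnar2*, *Jak1* and *Tyk2* were not called in any comparison (limma). *Tyk2* had means of 16.1 ± 1.56 FPKM (SD, n = 3) in control and 20.3 ± 1.26 in HFD, a log2 difference of 0.32 ± 0.09 (SE; limma adjusted p = 0.0575). None of the 5 negative regulators, *Socs3* and *Ptpn6* among them, was called.

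Of the genes that act upstream of interferon, 17 of 19 listed were tested. *Tmem173* (STING, the adaptor of cytosolic DNA sensing) rose in HFD against control, from 41.4 ± 6.72 to 55.7 ± 1.78 FPKM (SD, n = 3), a log2 difference of 0.43 ± 0.10 (SE; limma adjusted p = 0.0452). It also rose in HFD+control-FMT, by 0.51 ± 0.10 (limma adjusted p = 0.025), as did the transcription factors *Irf3* and *Irf8*, against 5.13% of all genes called. Alternative settings for these 3 calls in HFD+control-FMT are not given here. With median-ratio scaling, limma called 0 genes of the whole table in HFD against control, so the calls in that comparison, here and in the lists below, were lost. No upstream gene was called in HFD+AOS against control, where *Ifit3* and *Zbp1* rose.

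A wider list held 57 other interferon-stimulated genes, of which 54 were tested. In HFD+AOS against control 50 of them had a higher mean, against 60.2% of all genes, and *Pml*, *Ddx60* and *Samhd1* rose and none fell, against 1.8% of all genes called higher. None of the 3 rises passed the test with median-ratio scaling or with the compared groups only, and *Samhd1* did not without AOS library 3 and HFD+AOS library 1. In HFD against control 47 had a higher mean, against 68.5% of all genes. *Trim21*, *Nmi*, *Epsti1* and *Samhd1* rose there and *Nt5c3* fell, against 2.75% of all genes called. In HFD+AOS-FMT against HFD+AOS 50 had a lower mean, where 44.5% of all genes were higher, and *Ifit3b* and *Pml* fell. *Pml*, the organiser of the nuclear bodies that also hold SP100, had means of 55.7 ± 4.11 FPKM (SD, n = 3) in control, 78.3 ± 2.68 in HFD+AOS and 53.1 ± 4.0 in HFD+AOS-FMT. Of 20 genes of the interferon gamma response, *Nlrc5*, *Tgtp1* and *Tap1* rose in HFD+AOS against control, and *Irf1*, *Nlrc5*, *Psmb8* and *Tap1* in HFD. In HFD+control-FMT against control *Irf1*, *Nlrc5*, *Psmb8* and *Psmb9* rose. Over all genes 1.8% were called higher in HFD+AOS, and 2.75% and 5.13% were called in either direction in HFD and HFD+control-FMT. The 3 rises in HFD+AOS did not pass the test with median-ratio scaling, with the compared groups only or without both libraries. The mean of that list had r = 0.74 with the mean of the members (0.62 without both).

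Outside the members, the genes whose levels were most like their mean were *Ifi206* (r = 0.977), *Parp12* (0.975), *Ifit3b* (0.962), *Lgals3bp* (0.961), *Lgals9* (0.955), *Adar* (0.949), *Slfn5* (0.941), *Uba7* (0.934), *Oas1g* (0.934) and *Ifi207* (0.931). The correlation was taken over 18 libraries and 12934 other gene symbols, whose median r was 0.01, and 20 of them exceeded 0.9. The r of the 10 genes ran from 0.855 for *Oas1g* to 0.956 for *Ifi206* without AOS library 3 and HFD+AOS library 1. For 9 of these 10 the highest library was AOS library 3, and for *Uba7* it was HFD+AOS library 1. *Lgals3bp*, a secreted glycoprotein, had means of 73.8 FPKM in control, 121.8 in AOS, 97.4 in HFD, 119 in HFD+AOS, 65.1 in HFD+AOS-FMT and 91.6 in HFD+control-FMT.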

How the data were processed

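Spleen RNA of 18 libraries was measured in 6 groups. Reads were aligned with Bowtie 0.12.2 to mm10, per the submitters' processing notes. The sources used here name no counting program, annotation or filter. The authors deposited a single table whose unit, taken to be FPKM, was worked out from its numbers (the sum of value times transcript length varied by 0.785% between libraries, against 7.55% for plain totals), which cannot be told from RPKM. Column totals were 627964 to 831448 FPKM, with 16418 to 17524 genes above 0. Read depth is unknown, so no counting error is attached.

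Values were analysed as log2(FPKM + 1), so fold changes of low genes are understated. Tests covered the 12969 genes whose mean reached 1 FPKM in any group, using limma 3.58.1 (trend, robust; statmod 1.5.0; R 4.3.3) in 1 fit to 18 libraries with 12 residual degrees of freedom, with Benjamini-Hochberg adjustment at 0.05 over all genes in each comparison. The code was tested on simulated data. The members, marker and pathway lists were chosen with earlier results of these data known. Described in full are, in each role, the member with the smallest F-test p and the one with the highest mean, and any member called; for other lists, the genes called or with the smallest F-test p. Replicate numbers were checked for pairing: deviations of same-numbered libraries had r of 0.236, 0.268 and 0.191 in HFD+AOS and HFD, which met the criterion of r over 0.1 in every pair, and in no other comparison. With the replicate number as a block, no member was called there either. Alternatives were a pseudocount of 0.1, no filter, a minimum of 5 FPKM, median-ratio and quantile scaling, the compared groups alone, the block and leaving out each library. Gene coordinates are from GENCODE vM21 (GRCm38) and promoters from RefSeq (GRCm38.p6). A gene of the pathway lists is not reported here.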

Additional observations from a re-analysis of the deposited data

How the results depend on the processing

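The direction of the members' median held in every comparison under every alternative except the AOS and diet interaction, which ran from -0.68 to 0.11 when single libraries were left out. For AOS against control the median ran from 0.19 to 0.89. Counts of members called varied more. In HFD+AOS against control the 2 calls became 0 with no filter, with median-ratio scaling, with quantile normalization and with the compared groups only, and 0 to 13 without single libraries (13 without AOS library 3, 7 without AOS library 2, 5 without control library 3). HFD against control gave 1 at a minimum of 5 FPKM and 0 to 8 without single libraries. HFD+AOS-FMT against HFD gave 1 with the compared groups only. HFD+control-FMT against control gave 0 to 1 without single libraries and 1 with AOS library 3 and HFD+AOS library 1 both left out. AOS against control gave 0 to 6, and the F test 0 to 8. HFD+AOS-FMT against HFD+AOS gave 0 with no filter, 5 at a minimum of 5 FPKM, 17 with the compared groups only, 5 with both libraries left out, and 0 to 18 without single libraries (18 without AOS library 3, 12 without AOS library 2). Where no count over all genes stands beside them, these counts are not read as a result about the members. All 18 libraries share 1 fit, so each library enters the spread used in every comparison, except with the compared groups only. For *Ifit3* in HFD+AOS against control the SE was 0.47 with all libraries. Without AOS library 3 and HFD+AOS library 1 it was 0.28. The cause of the changes in the counts was not tested. Where a group kept 2 libraries, they were assumed to vary like the other groups.

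Median-ratio scaling moved the median of all genes in HFD against control from 0.10 to 0.001, and the calls over all genes from 357 to 0 (5 with quantile normalization, 625 at a minimum of 5 FPKM, 1842 with the replicate block). Over all genes it also moved the calls from 271 to 145 in HFD+AOS against control, from 665 to 418 in HFD+control-FMT against control and from 119 to 188 in HFD+AOS-FMT against HFD+AOS, and with the compared groups only the first of these was 1. Members with a higher mean in HFD+control-FMT than in control numbered 24, and 19 or 20 after these scalings. With the replicate number as a block, calls among members were 6 in HFD against control, 1 in HFD+control-FMT against control and 7 in HFD+AOS-FMT against HFD+AOS, where the libraries share only a number. The counts over all genes for the last 2 of these comparisons are not given here, so they are not read as a result about the members. In HFD+AOS-FMT and control, 6 of 6 libraries correlated best with their own number, a hint from the data only. The block left the other counts of members called unchanged or within 1.5 times.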
